A study of Mus musculus with 6 samples.

Results

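The genes described here are 41 genes of DNA replication and nucleotide supply, chosen by name from the 16081 genes listed in each sample: 9 of origin licensing, 12 of the replicative helicase, 16 of the polymerases and the replication fork, and 4 of nucleotide synthesis. All 41 had enough counts to be tested, among 11552 genes tested in all. The RNA-seq experiment used the mouse lung carcinoma cell line Lewis and asked how transcription changed when the histone demethylase KDM4C was inhibited. Cells were treated for 24 hours with SD70, a KDM4C inhibitor, or with its vehicle DMSO, with 3 samples in each group, and no genetic change is named for either group. The dose of SD70 in this experiment is not given in the sources used here. Total counts ran from 15276744 to 17060424 per sample. The labels do not say whether the 3 samples of a group were separate cultures, so p-values measure the spread between these samples, which may be technical, although the study states in general that its experiments were repeated independently. The labels give cultured cells as the source, although their RNA extraction text speaks of ground tissue. The 5 lung epithelial markers listed summed to 4018 to 4228 counts with DMSO and 2414 to 2916 with SD70, nearly all from Krt8 (log2 fold change -0.55, adjusted p = 3.28e-11) and Krt18 (-1.22, adjusted p = 2.97e-07), while Epcam, Cdh1 and Sftpc had at most 1. The 7 immune markers listed summed to 270 to 283 counts with DMSO and 188 to 217 with SD70, most of them from Cd68 (155 to 253 per sample), while the defining markers Ptprc and Csf1r had at most 2. Cd68 was lower with SD70 (log2 fold change -0.48), whereas Lyz2, with 11 to 26 counts, lay higher but did not pass (0.79, adjusted p = 0.0256). Cd79a had 3 to 19 counts and overlapping groups (-0.79). The 5 fibroblast markers summed to 3399 to 3486 counts with DMSO and 3223 to 3353 with SD70, a sum in which Pdgfra was lower with SD70 (log2 fold change -0.999), Pdgfrb higher (1.54) and Dcn lower (-0.19), while Col1a1 had at most 6. The 4 endothelial markers summed to 59 to 73 counts with DMSO and 63 to 69 with SD70. The part of these markers in the results was not tested.

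A replication origin is licensed in G1 phase, when the origin recognition complex (ORC) together with Cdc6 and Cdt1 loads the ring of MCM proteins onto DNA, and geminin (Gmnn) holds Cdt1 inactive from S phase onwards. Cdc45 and the GINS complex then join the MCM ring to form the active helicase, behind which DNA polymerases work with the sliding clamp PCNA, the clamp loader RFC and the single-strand binding protein RPA. Ribonucleotide reductase, thymidylate synthase and thymidine kinase supply deoxynucleotides, and many genes of this system are known targets of E2F transcription factors in dividing cells.

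After SD70, 19 of the 41 transcripts passed the test, in both directions and by less than 2-fold, and 22 did not. In the quasi-likelihood test of edgeR, with p-values adjusted by the Benjamini-Hochberg method over all genes tested, and at an adjusted p under 0.01, 7 members fell (17.1%), beside 24.2% of all genes, and 12 members rose (29.3%), beside 25.8% of all genes. None of the 41 met the rule of an adjusted p under 0.01 together with a change of at least 2-fold, which 5.90% of all genes met in either direction. DESeq2 and limma-trend gave the same count of 0 members under that rule, and 24 members (58.5%) had an unadjusted p under 0.05, beside 63.6% of all genes. The 95% intervals of all 41 log2 fold changes lay inside a 2-fold change, from -0.82 to 0.99, as did those of 86.8% of all genes. The normalized counts of the 2 groups did not overlap in 25 members (61.0%), beside 64.4% of all genes. The median log2 fold change was 0.03 over the members and -0.00432 over all genes, and the median absolute log2 fold change was 0.146 over the members and 0.251 over all genes. In bulk RNA, a change in the share of cells in a phase of the cell cycle and a change in RNA per cell cannot be told apart.

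**Figure D1:**
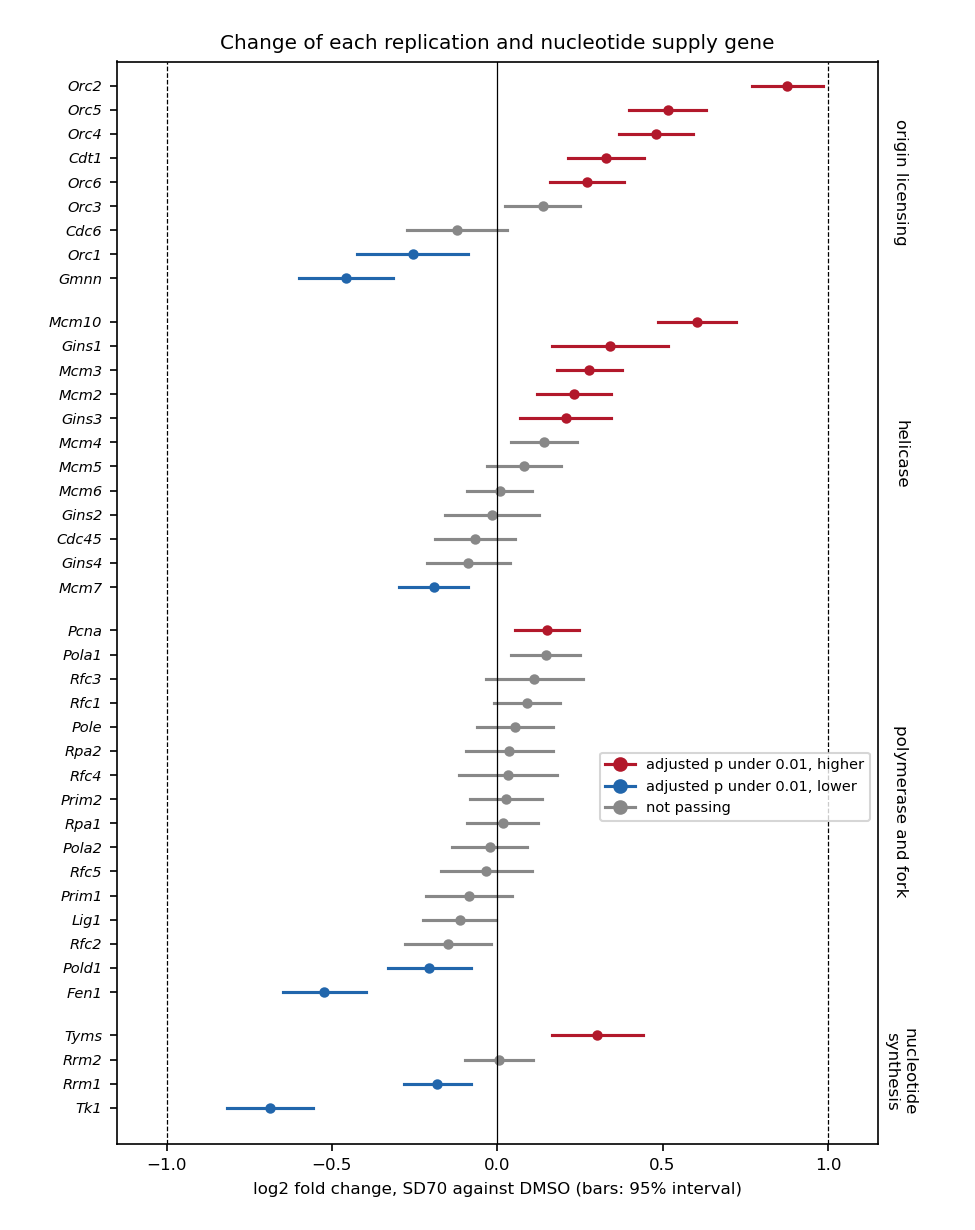
Log2 fold change of each of the 41 genes, SD70 against DMSO, with its 95% interval as a bar, grouped by role; dashed lines mark a 2-fold change. Licensing genes spread from -0.46 (Gmnn) to 0.88 (Orc2). Of the 16 polymerase and fork genes, 1 rose (6.25%, beside 25.8% of all genes), 2 fell (12.5%, beside 24.2%) and 13 did not pass.

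By role, licensing had the largest count of members that passed and the polymerase and fork genes the smallest share. The shares are read against the 24.2% of all genes that were lower and the 25.8% that were higher. Of the 9 licensing genes, 5 rose (55.6%), 2 fell (22.2%) and 2 did not pass, with a median log2 fold change of 0.27. Of the 12 helicase genes, 5 rose (41.7%), 1 fell (8.33%) and 6 did not pass, with a median of 0.11. Of the 16 polymerase and fork genes, 1 rose (6.25%), 2 fell (12.5%) and 13 did not pass, with a median of 0.02. Of the 4 nucleotide synthesis genes, 1 rose (25.0%), 2 fell (50%) and 1 did not pass, with a median of -0.09. Summed over a role and scaled to 1000000 counts per sample, licensing transcripts went from 689 ± 20.2 with DMSO to 890 ± 19.7 with SD70 (SD, n = 3), and nucleotide synthesis transcripts from 630 ± 22.8 to 571 ± 22.3. The helicase sum was 1697 ± 55.2 with DMSO and 1796 ± 33.6 with SD70. The polymerase and fork sum was 1553 ± 30.4 with DMSO and 1544 ± 4.00 with SD70. All members together gave 4570 ± 124 with DMSO and 4801 ± 13.8 with SD70. These sums are dominated by the most abundant members, and differences between roles were not tested.

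E2F-type letters were looked for in the promoters of the members. RefSeq promoter windows, which run from 250 bases before to 50 bases after a start site in GRCm38.p6, were found for 33 of the 41 members. Gins1, Gins2, Gins4, Gmnn, Mcm4, Pole, Prim2 and Rfc2 had no window in the table. On either strand, the letters TTTCCCGC, TTTGGCGC, TTTCGCGC or TTTGCCGC stood in the windows of 13 members (39.4%), compared with 447 of the 9284 tested genes that had a window (4.81%) and 704 of all 27025 genes of the table (2.6%). Of the 19 E2F-type matches in members, 1 overlaps a match of the other motifs given next. The letters were present in 3 of 11 members that rose, 3 of 6 that fell and 7 of 16 that did not pass. The letters CCAAT stood in 21 of the 33 members (63.6%) and in 44.3% of tested genes, and TTTGAA or TTCGAA in 6 members (18.2%) and in 16.6% of tested genes. A match describes the letters only, and binding was not measured here.

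The 3 stretches that follow each hold the 120 bases before a start site of the RefSeq table. They are printed 5′ to 3′ on the strand of the gene, with E2F-type letters in capitals. They were chosen to set side by side a gene that fell and has such letters (Orc1, plus strand, chr4:108579334-108579453), a gene with 3 such matches that did not pass (Mcm6, minus strand, chr1:128359706-128359825) and a gene that rose and has none in this window (Mcm10, minus strand, chr2:5012792-5012911).
Orc1: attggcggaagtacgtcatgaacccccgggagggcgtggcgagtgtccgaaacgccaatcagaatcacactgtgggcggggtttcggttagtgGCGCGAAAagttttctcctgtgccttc
Mcm6: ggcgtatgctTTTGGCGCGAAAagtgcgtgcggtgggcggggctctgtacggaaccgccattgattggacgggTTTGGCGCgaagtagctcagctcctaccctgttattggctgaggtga
Mcm10: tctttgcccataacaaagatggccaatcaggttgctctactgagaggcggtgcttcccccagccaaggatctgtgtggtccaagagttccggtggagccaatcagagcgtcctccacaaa
In Mcm6, 2 of the matches overlap, one on each strand, and form the first run of capitals. The start site used for Orc1 lies inside the annotated gene, which runs from 108575705 to 108616030. The Orc1 stretch is therefore not upstream of the whole gene, and 3 of its bases lie in annotated exons. The bases just after the start site, not shown, were found in GENCODE M21 transcripts in the sense orientation for Orc1 and Mcm10, and in neither orientation for Mcm6, whose start site follows the RefSeq table alone.

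Licensing genes showed the largest rise among the members. Orc2, a core subunit of ORC on chromosome 1 from 58462771 to 58505113 (GRCm38.p6), had 2057, 2321 and 2185 normalized counts (counts scaled to a common library size) with DMSO and 4048, 3837 and 4175 with SD70. The groups did not overlap, with all SD70 samples the higher, and the log2 fold change was 0.88 (standard error 0.0530, 95% interval 0.77 to 0.99, adjusted p = 3.85e-16). Orc2 shares 24% of its exonic bases with Nif3l1, a neighbour on the opposite strand, which had a mean of 651 normalized counts with DMSO and 1187 with SD70 (log2 fold change 0.86). Whether reads were counted by strand is not given in the sources used here, so reads from shared bases cannot be told apart.

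Orc5, another ORC subunit, had 1077, 1174 and 1064 normalized counts with DMSO and 1650, 1533 and 1556 with SD70. The groups did not overlap, and the log2 fold change was 0.52 (95% interval 0.40 to 0.63, adjusted p = 1.43e-09). Orc4, which carries one of the ATPase folds of ORC, had 1823, 1881 and 1818 with DMSO and 2788, 2466 and 2447 with SD70. SD70 replicate 1 was the highest, all 3 lay above the DMSO samples, and the log2 fold change was 0.48 (95% interval 0.37 to 0.59, adjusted p = 2.86e-09). Orc4 counts were not whole numbers in any of the 6 samples, and 9.48% of its exonic bases are shared with Acvr2a. Orc6, which helps ORC recruit the MCM ring, rose by a log2 fold change of 0.27 (95% interval 0.16 to 0.38). Orc3 had a log2 fold change of 0.14 (95% interval 0.02 to 0.25) and did not pass (adjusted p = 0.0334), although its groups did not overlap.

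Orc1, the subunit of ORC whose amount oscillates with the cell cycle in mammalian cells, went the other way. It had 356, 376 and 371 normalized counts with DMSO and 335, 304 and 284 with SD70, with no overlap. The log2 fold change was -0.26 (95% interval -0.42 to -0.09, adjusted p = 0.00809), and the call was lost in 5 of 13 alternative settings, among them without DMSO replicate 2 or 3 or SD70 replicate 2 or 3 (adjusted p up to 0.0460). Orc1 shares 11.9% of its exonic bases with Gm12743, a gene on the opposite strand. FPKM is a level scaled by gene length and library size. Within a sample, the FPKM ratio of Orc2 to Orc1 was 5.05, 5.41 and 5.16 with DMSO and 10.8, 11.05 and 13.1 with SD70, a pair picked after the values were seen and therefore not tested. Levels per length (FPKM) of the ORC subunits spanned from 7.57 ± 0.207 for Orc1 to 72.4 ± 3.28 for Orc6 with DMSO, and from 6.13 ± 0.475 to 85.3 ± 4.93 with SD70 (SD, n = 3).

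Among the loading factors, Cdt1 and its inhibitor moved in opposite directions. Gmnn had 656, 658 and 668 normalized counts with DMSO and 513, 483 and 446 with SD70. The 3 DMSO samples lay close together and above all SD70 samples, with a log2 fold change of -0.46 (95% interval -0.60 to -0.32, adjusted p = 9.13e-07). Cdt1 rose by a log2 fold change of 0.33 (95% interval 0.21 to 0.45, adjusted p = 6.80e-06). Cdc6, the ATPase that works with Cdt1, had overlapping groups and a log2 fold change of -0.12 (95% interval -0.27 to 0.03). The FPKM ratio of Cdt1 to Gmnn was 1.04, 1.01 and 1.08 with DMSO, against 1.53, 1.82 and 2.06 with SD70. The log2 difference was 0.78, higher in 3 of 3 samples (two-sided exact permutation test, p = 0.1, adjusted over 2 ratios 0.1), where 0.1 is the smallest p that 3 against 3 allows.

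**Figure D2:**
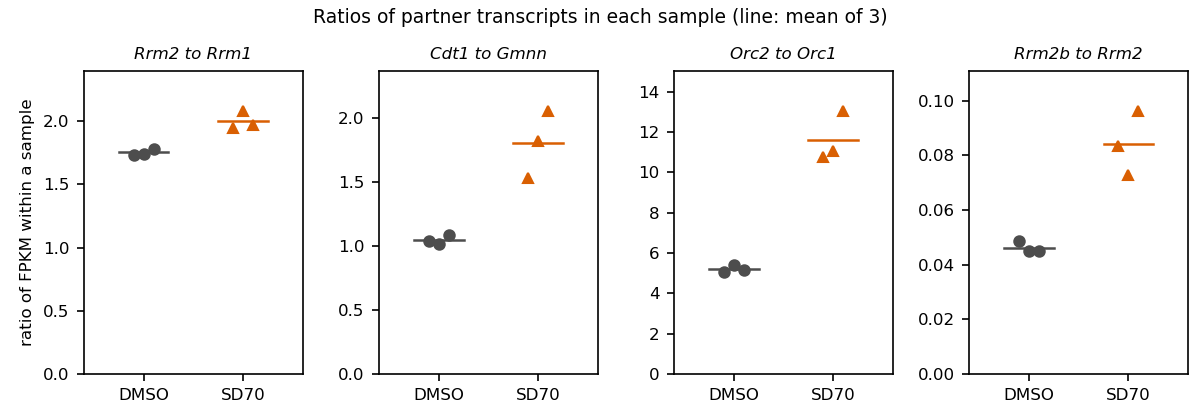
Ratio of the FPKM values of a pair of genes within each sample, with points for samples and a line for the mean of 3. In each of the 4 pairs the SD70 samples lie above the DMSO samples, for Cdt1 to Gmnn between 1.53 and 2.06 against 1.01 to 1.08; the Orc2 to Orc1 and Rrm2b to Rrm2 pairs were picked after the values were seen.

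Of the helicase genes, Mcm10 had the largest difference. Mcm10, which binds the MCM ring and is needed for its activation, had 901, 966 and 1015 normalized counts with DMSO and 1490, 1399 and 1493 with SD70. The groups were well apart, with a log2 fold change of 0.60 (95% interval 0.49 to 0.72, adjusted p = 6.56e-11). Its level per length went from 17.5 ± 1.02 to 26.0 ± 0.880 FPKM (SD, n = 3).

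Gins1, a subunit of GINS, had 236, 242 and 245 normalized counts with DMSO and 317, 301 and 297 with SD70. It had the lowest mean normalized count of the members in both groups, its samples did not overlap between groups, and the log2 fold change was 0.34 (95% interval 0.16 to 0.52, adjusted p = 0.00103). Gins3 rose by 0.21 on the log2 scale (95% interval 0.07 to 0.34, adjusted p = 0.00849), a call that was lost in 9 of 13 alternative settings, including the removal of any sample other than SD70 replicate 3 (adjusted p up to 0.0808). The remaining GINS subunits did not pass, with log2 fold changes of -0.02 for Gins2 (95% interval -0.16 to 0.13) and -0.09 for Gins4 (95% interval -0.21 to 0.04). Gins2 shares 70.7% of its exonic bases with Gse1 on the opposite strand, for which the log2 fold change was -0.58. Cdc45, a further component of the active helicase, had a log2 fold change of -0.07 (95% interval -0.19 to 0.05).

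The 6 subunits of the MCM ring did not move together. Mcm3 had 5824, 5834 and 6127 normalized counts with DMSO and 6926, 7242 and 7412 with SD70, with separate groups and a log2 fold change of 0.28 (95% interval 0.18 to 0.38, adjusted p = 8.32e-06). Mcm2, the subunit that also binds histones, had 1945, 2076 and 2138 with DMSO and 2281, 2371 and 2590 with SD70. The groups did not overlap, SD70 replicate 3 was the highest, and the log2 fold change was 0.23 (95% interval 0.12 to 0.35, adjusted p = 4.65e-04); without SD70 replicate 3 the adjusted p was 0.0104. Mcm7 fell, with a log2 fold change of -0.19 (95% interval -0.30 to -0.09, adjusted p = 0.00169), and 10.8% of its exonic bases are shared with Ap4m1. Without DMSO replicate 2 the adjusted p of Mcm7 was 0.0107, and without SD70 replicate 1 it was 0.0101. Mcm4, Mcm5 and Mcm6 did not pass, with log2 fold changes of 0.14 (95% interval 0.04 to 0.24), 0.08 (95% interval -0.03 to 0.19) and 0.01 (95% interval -0.09 to 0.11). On the FPKM scale the levels of the ring subunits with DMSO ran from 39.2 ± 1.80 for Mcm2 to 152 ± 5.81 for Mcm6, and with SD70 the highest was Mcm3 with 158 ± 5.73, next to Mcm6 with 149 ± 1.14.

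**Figure D3:**
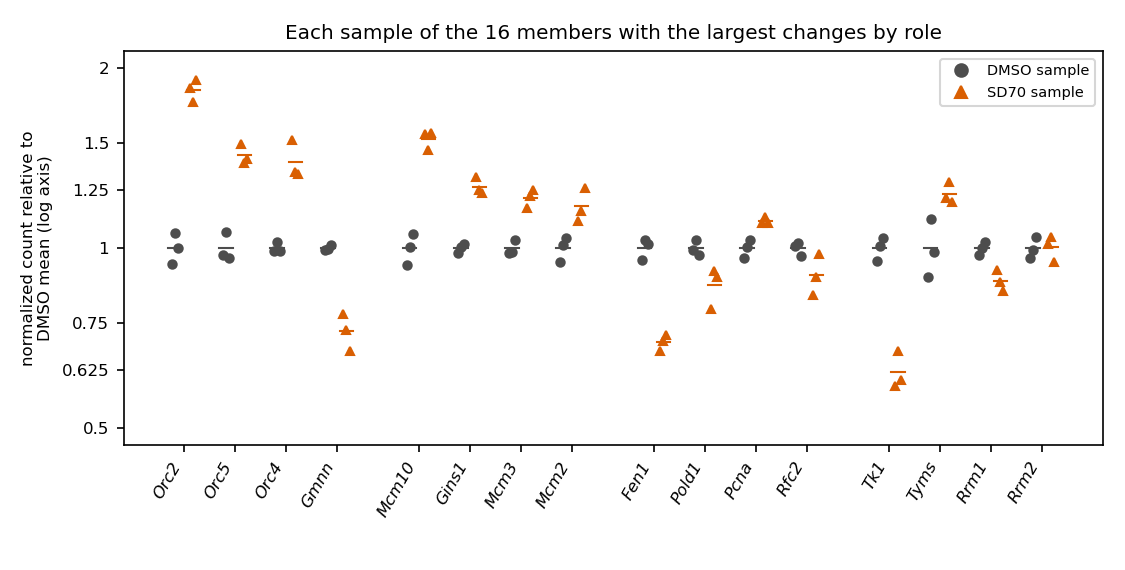
Normalized count of each sample divided by the DMSO mean of the gene, on a log axis, for the 4 members of each role with the largest absolute log2 fold change; short lines are group means. The groups overlap for Rfc2 and Rrm2 and are apart for the other 14, a count that the choice of large changes favours (25 of all 41 members, 61.0%, and 64.4% of all genes had separate groups).

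Of the 16 polymerase and fork genes, the largest role, 1 rose (6.25%, beside 25.8% of all genes) and 2 fell (12.5%, beside 24.2%). Their largest difference was in Fen1, the flap endonuclease that trims Okazaki fragments. Fen1 had 907, 981 and 965 normalized counts with DMSO and 639, 666 and 681 with SD70. All SD70 samples were lower, with a log2 fold change of -0.52 (95% interval -0.65 to -0.40, adjusted p = 6.65e-09). On the opposite strand, the annotated gene Gm10143 shares 78.8% of the exonic bases of Fen1, and Tmem258 shares 5.37%. As for Orc2, reads from the shared bases cannot be told apart.

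Pold1, the catalytic subunit of polymerase delta, had 1058, 1101 and 1040 normalized counts with DMSO and 843, 978 and 954 with SD70. The groups did not overlap, SD70 replicate 1 was the lowest, and the log2 fold change was -0.21 (95% interval -0.33 to -0.08, adjusted p = 0.00454). Without SD70 replicate 1 its adjusted p was 0.0486, and without DMSO replicate 2 it was 0.0225.

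Pcna, the sliding clamp, had the highest level of the members on the FPKM scale, 334 ± 8.70 with DMSO and 365 ± 3.25 with SD70 (SD, n = 3). Pcna had 5742, 6001 and 6151 normalized counts with DMSO, against 6575, 6714 and 6570 with SD70. The groups did not overlap and Pcna rose by 0.15 on the log2 scale (95% interval 0.05 to 0.25, adjusted p = 0.00767), but the call was lost in 9 of 13 alternative settings, including the removal of any sample other than SD70 replicate 1 (adjusted p up to 0.0485). Rfc2, a subunit of the clamp loader, had 886, 898 and 854 normalized counts with DMSO and 734, 788 and 861 with SD70. The value of SD70 replicate 3 lay within the DMSO range, and the log2 fold change of -0.15 (95% interval -0.28 to -0.02) did not pass (adjusted p = 0.0454). The other loader subunits had log2 fold changes of 0.09 (Rfc1), 0.11 (Rfc3), 0.03 (Rfc4) and -0.03 (Rfc5), none of which passed.

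The initiating polymerase, the leading strand polymerase and the remaining fork genes did not pass. Pola1, the catalytic subunit of polymerase alpha, had separate groups and a log2 fold change of 0.15 (95% interval 0.04 to 0.25, adjusted p = 0.0140). Its partner Pola2 had a log2 fold change of -0.02 (95% interval -0.14 to 0.09), and the primase subunits Prim1 and Prim2 had -0.09 (95% interval -0.22 to 0.05) and 0.03 (95% interval -0.08 to 0.14). Pole, the catalytic subunit of polymerase epsilon, had a log2 fold change of 0.05 (95% interval -0.06 to 0.17). The single-strand binding subunits Rpa1 and Rpa2 had log2 fold changes of 0.02 (95% interval -0.09 to 0.12) and 0.04 (95% interval -0.10 to 0.17). Lig1, the ligase that seals Okazaki fragments, had separate groups and a log2 fold change of -0.11 (95% interval -0.22 to -0.00421) but did not pass (adjusted p = 0.0676).

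**Figure D4:**
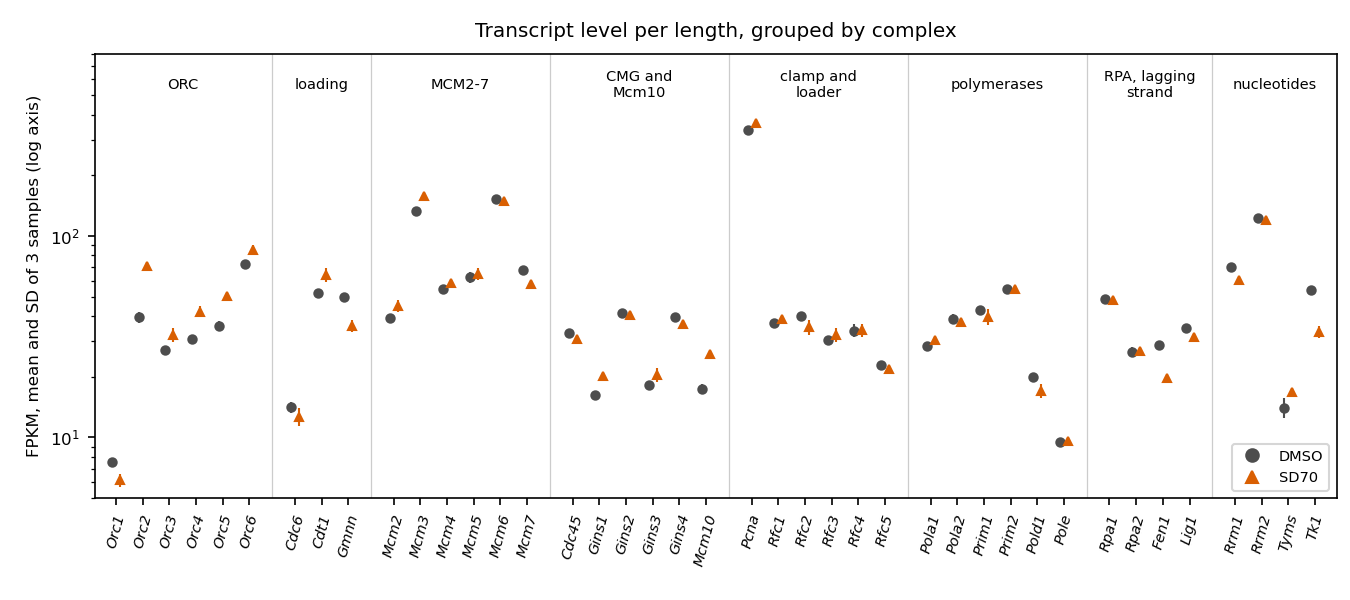
Level per length (FPKM, log axis) of each gene in DMSO and SD70, as mean and SD of 3 samples, grouped by complex. Pcna is highest (334 with DMSO) and Orc1 lowest (7.57 with DMSO), and the gap between Orc1 and Orc2 is wider with SD70.

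Of the nucleotide synthesis genes, Tk1 had the largest fall among all 41 members. Tk1, the cytosolic thymidine kinase that salvages thymidine, lies on chromosome 11 from 117815519 to 117826087 (GRCm38.p6) and had 1020, 1079 and 1114 normalized counts with DMSO and 630, 721 and 645 with SD70. The highest SD70 sample was well below the lowest DMSO sample, and the log2 fold change was -0.69 (standard error 0.0641, 95% interval -0.82 to -0.56, adjusted p = 2.88e-11). Its level per length went from 53.8 ± 2.08 to 33.4 ± 2.41 FPKM (SD, n = 3), and 5.76% of its exonic bases are shared with Afmid (log2 fold change -0.29).

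Tyms, the thymidylate synthase that makes the same nucleotide by the route from deoxyuridine, rose. It had 744, 930 and 820 normalized counts with DMSO and 1008, 1072 and 993 with SD70. The groups did not overlap although the DMSO samples were spread, and the log2 fold change was 0.30 (95% interval 0.16 to 0.44, adjusted p = 2.64e-04). Tyms counts were not whole in any sample, as for Orc4, and no other member shared this.

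Rrm1 and Rrm2 encode the large and small subunits of ribonucleotide reductase. Rrm1 had 4264, 4373 and 4478 normalized counts with DMSO and 4016, 3844 and 3711 with SD70, with no overlap and a log2 fold change of -0.18 (95% interval -0.28 to -0.08, adjusted p = 0.00206). Without DMSO replicate 3 the adjusted p of Rrm1 was 0.0139, and without SD70 replicate 3 it was 0.0118. Rrm2 had 3883, 4007 and 4204 with DMSO and 4096, 4207 and 3827 with SD70. The samples of Rrm2 were intermixed, and its log2 fold change was 0.00444 (95% interval -0.10 to 0.11). The FPKM ratio of Rrm2 to Rrm1 was 1.74, 1.75 and 1.78 with DMSO and 1.95, 2.08 and 1.97 with SD70, a log2 difference of 0.19 and higher in 3 of 3 samples (two-sided exact permutation test, p = 0.1, adjusted over 2 ratios 0.1).

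Shared exons touched 16 of the 41 members, and in 12 of them the shared part was over 5% of exonic bases in GENCODE release M21. These 12 included 4 of the members that fell (33.3% of the 12, Orc1, Mcm7, Fen1 and Tk1) and 3 of those that rose (25.0%, Orc2, Orc4 and Orc6). Among the other 29 members, 3 fell (10.3%, beside 24.2% of all genes), 9 rose (31%, beside 25.8%) and 17 did not pass.

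Beyond the members, 84 further genes of replication and nucleotide supply were followed, all of which were tested. Of these, 23 fell (27.4%), 24 rose (28.6%) and 37 did not pass, with a median log2 fold change of -0.00121, beside 24.2% lower and 25.8% higher among all genes. The shares given for the lists that follow are read against the same 24.2% and 25.8%, and no list was tested as a set. The largest rises came from the 12 genes of origin firing, of which 5 fell (41.7%) and 3 rose (25.0%). Mtbp, a partner of the firing factor treslin, had 684, 697 and 752 normalized counts with DMSO and 1504, 1480 and 1614 with SD70. The groups were far apart, with a log2 fold change of 1.11 (95% interval 0.99 to 1.23, adjusted p = 1.81e-17). Mtbp shares 6.45% of its exonic bases with Mrpl13. Recql4, a helicase of the RecQ family, had 301, 345 and 274 with DMSO and 833, 784 and 1072 with SD70, with a log2 fold change of 1.54 (95% interval 1.26 to 1.83, adjusted p = 2.05e-06). Counts of Recql4 were not whole in any sample, and 9.96% of its exonic bases are shared with Mfsd3. Mtbp and Recql4 were the only 2 of the 84 that passed with a change of at least 2-fold, a rule that 5.90% of all genes met. Ccne1, the cyclin E that drives entry into S phase, fell (log2 fold change -0.44).

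The other deoxynucleotide supply genes numbered 11, of which 4 rose (36.4%, beside 25.8% of all genes) and 7 did not pass. Rrm2b, the p53-inducible alternative small subunit of ribonucleotide reductase, had 408, 391 and 409 normalized counts with DMSO and 742, 663 and 799 with SD70. All SD70 samples were higher, with a log2 fold change of 0.87 (95% interval 0.71 to 1.02, adjusted p = 3.21e-12). Its FPKM ratio to Rrm2 was 0.0462 ± 0.00204 with DMSO and 0.0841 ± 0.0118 with SD70 (SD, n = 3), so Rrm2b stayed far below Rrm2 per length in both groups. Dctd, the deoxycytidylate deaminase, and Nme1, a nucleoside diphosphate kinase, rose by 0.51 and 0.46 on the log2 scale.

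Of 18 genes of pyrimidine and purine synthesis, 8 rose (44.4%, beside 25.8% of all genes) and 4 fell (22.2%, beside 24.2%). Umps, which completes the making of uridine monophosphate, rose by 0.53 on the log2 scale, and the purine enzymes Ppat and Atic rose by 0.51 and 0.41. Of 22 other polymerase and fork subunits, 6 fell (27.3%) and 4 rose (18.2%). Pold4, the smallest subunit of polymerase delta, fell from 913 ± 65.2 to 530 ± 22.5 normalized counts (SD, n = 3; log2 fold change -0.78, adjusted p = 3.77e-12). Rnaseh2c, a subunit of ribonuclease H2, fell (log2 fold change -0.61), whereas Pole4, an accessory subunit of polymerase epsilon, rose (0.59).

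Of 8 genes of chromatin assembly and methylation at the fork, 3 fell (37.5%, beside 24.2% of all genes) and 3 rose (37.5%, beside 25.8%). The partners in chromatin assembly factor 1 went opposite ways, with a log2 fold change of -0.39 for Chaf1a and 0.47 for Chaf1b. Hells, a chromatin remodeller of the SNF2 family, rose by 0.33 on the log2 scale. Of the 13 E2F and pocket protein genes, 5 fell (38.5%, beside 24.2% of all genes) and 2 rose (15.4%, beside 25.8%). Rbl2, the pocket protein p130, fell (log2 fold change -0.56), as did the repressor E2f7 (-0.51), while the activator E2f3 rose (0.39).

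**Figure D5:**
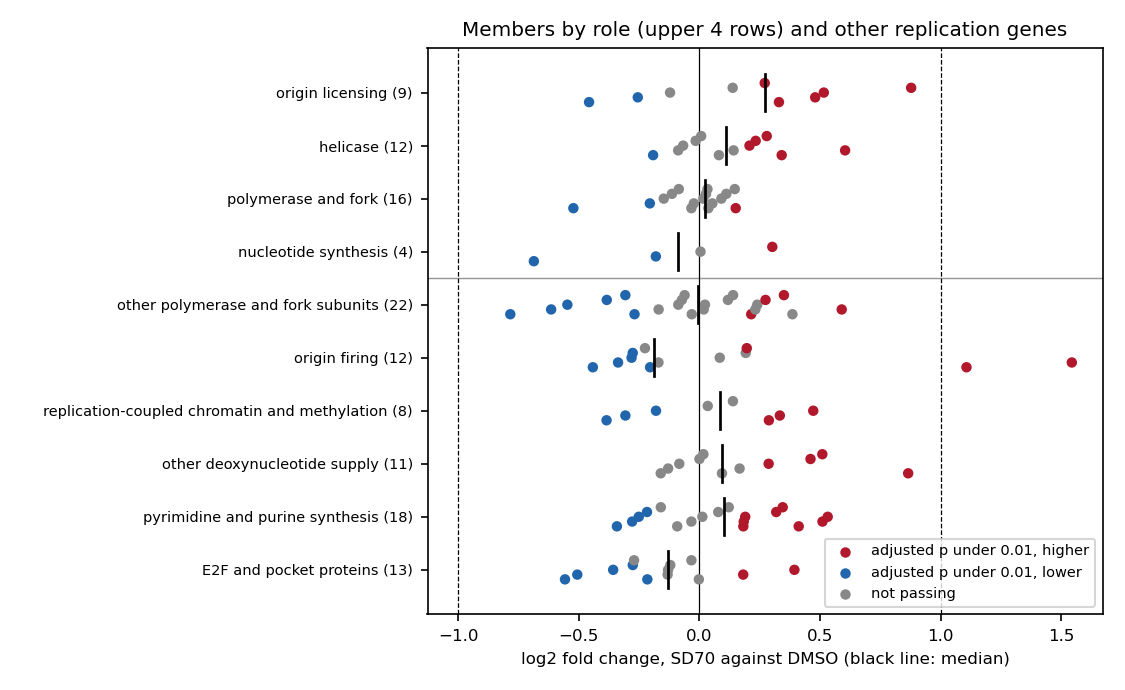
Log2 fold change of each gene, SD70 against DMSO, for the 4 roles of the members (upper rows) and the 6 lists of other genes (lower rows), with the number of genes in brackets and a black line at the median. Only Mtbp (1.11) and Recql4 (1.54), both of origin firing, lie beyond the dashed lines at a 2-fold change. At an adjusted p under 0.01, which both had, 5.90% of all genes changed by at least 2-fold.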

How the data were processed

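RNA-seq of 3 DMSO and 3 SD70 samples was analysed, with groups taken from the treatment in the sample labels. The authors sequenced on the BGISEQ-500 platform and used HISAT to align reads to GRCm38.p6. The expected counts that they deposited per gene are raw, without normalization. They also deposited an FPKM value, scaled by gene length and library size; its column header does not name the unit, which was settled from the values. The submitters' processing notes name StringTie 1.3.3b and, unlike the methods, the build mm8. The use of strand and the counting settings are not given in the sources used here.

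These counts were rounded, filtered by filterByExpr, normalized by TMM and tested in edgeR 4.0.16 (R 4.3.3; glmQLFTest after a robust glmQLFit), with Benjamini-Hochberg adjustment over 11552 genes. Passing means an adjusted p under 0.01, and the fold rule adds a log2 fold change of 1 or more in either direction. Normalized counts are scaled to 1 library size, the mean effective size over the 6 samples. Totals were 15276744 to 17060424 counts per sample, and precision is limited by 3 samples per group. No 2 samples of a group agreed within sampling noise (chi-square per gene 2.12 to 4.97). Within-sample FPKM ratios were compared by a two-sided exact permutation test.

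Alternatives were DESeq2 size factors, 2 other filters (at least 1 count in any sample; at least 10 in every sample), a block for the replicate number, DESeq2 1.42.0 with its Wald test, limma-trend (limma 3.58.1) on log2(FPKM + 1) and log2(FPKM + 0.1), leaving out each sample, and an adjusted p under 0.05. Tests were first tested on simulated data. The members, lists and motifs were chosen with earlier results of these data known. Values per sample are given for the 4 members of each role with the largest absolute log2 fold change, and up to 3 passing genes of each related list are named; the samples of Orc1, neighbours that share exons, and the Orc2 to Orc1 and Rrm2b to Rrm2 ratios, were added after values were seen. Exons came from GENCODE M21, and promoters from a RefSeq table (GRCm38.p6) searched with Python 3.11.15.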

Additional observations from a re-analysis of the deposited data

How the results depend on the processing

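No member met the 2-fold rule in any setting, and the median log2 fold change of all genes tested stayed between -0.0313 and 0.00521. The count of members that fell was 7 in the fit described, 4 to 7 with a sample left out (4 without DMSO replicate 2, where Orc1, Mcm7 and Pold1 did not pass) and 5 to 8 otherwise. The count that rose was 12, 10 to 12 with a sample left out and 10 to 15 otherwise. Orc2, Orc4, Orc5, Orc6, Cdt1, Gmnn, Mcm3, Mcm10, Gins1, Fen1, Tyms and Tk1 passed in all 13 alternative fits, each at an adjusted p under 0.01. Calls were lost in 9 of the 13 for Gins3 and Pcna, in 5 for Orc1, in 3 for Mcm2 and Pold1, and in 2 for Mcm7 and Rrm1. Orc3 passed in 2 of these fits and Mcm4, Pola1 and Rfc2 in 1 each, and all 4 pass at an adjusted p under 0.05 in the fit described. The Rrm2 to Rrm1 log2 difference ranged from 0.16 to 0.21 and that of Cdt1 to Gmnn from 0.68 to 0.89.

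The median log2 fold change of the members was 0.0221 with at least 10 counts in every sample, 0.00932 on log2(FPKM + 1), 0.00968 on log2(FPKM + 0.1), and -0.00977 (without DMSO replicate 1) to 0.0495 with a sample left out, so its sign is not settled. The licensing median was 0.244 and 0.251 on the 2 FPKM scales and 0.224 to 0.297 with a sample left out, and the polymerase and fork median was -0.0201 to 0.0315 with a sample left out. The sign of members near 0 also turned. Under the stricter filter of at least 10 counts, the log2 fold change was -0.00388 for Mcm6 and -0.00668 for Rrm2. On log2(FPKM + 1) it was -0.0246 for Mcm6, -0.000547 for Prim2, -0.0160 for Rpa1 and -0.0265 for Rrm2, and on log2(FPKM + 0.1) it was -0.0247, -0.000562, -0.0163 and -0.0267. With a sample left out, values ranged from -0.0190 to 0.0314 for Mcm6, from -0.0524 to 0.0212 for Gins2, from -0.0302 to 0.0743 for Rfc4, from -0.0553 to 0.0207 for Pola2, from -0.00451 to 0.0559 for Prim2, from -0.0208 to 0.0454 for Rpa1, from -0.0152 to 0.0652 for Rpa2 and from -0.0233 to 0.0360 for Rrm2. The cause was not tested.

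The labels give both groups replicate numbers 1 to 3. Deviations of same-numbered samples correlated at -0.0686, 0.0477 and 0.114 for numbers 1, 2 and 3 over all genes tested, at 0.176, 0.254 and 0.157 over the 9624 genes with a mean count of at least 100 (each DMSO sample then correlating best with its own number), and at 0.162, -0.0244 and -0.0201 over the 7779 with at least 300. Since the correlation changed with the minimum count and the labels name nothing shared, the numbers were not taken as pairs. With the replicate number as a block, 7 members fell, 12 rose and 0 met the 2-fold rule, as without it. Precision was lowest for the members with the fewest counts, Gins1 (standard error 0.0868 on the log2 scale) and Orc1 (0.0826).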
